A study of Rattus norvegicus with 6 samples.

Results

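Immediate early genes are switched on in neurons within minutes of synaptic activity, before any new protein has to be made. Calcium entry activates kinases that act on transcription factors already present, CREB and the serum response factor, and these start Fos, Egr1 and their relatives. The products are of several kinds: transcription factors that carry the response to later genes (Fos, Fosb, Junb, Egr1, Egr2, Egr3, Nr4a1, Npas4), and proteins that act at the synapse (Arc and the short form of Homer1). In the hippocampus their messages are widely used as a trace of recent neuronal activity and are tied to the storage of memory.

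The 10 genes Fos, Fosb, Junb, Egr1, Egr2, Egr3, Arc, Nr4a1, Npas4 and Homer1 were picked by name, from the gene names printed with the probes of a whole-genome rat array. They were read by 11 of its 41012 probes, 1 for each gene and 2 for Homer1. Arc, Egr1 and the first Homer1 probe were each printed as 10 spots per array and the others as 1 spot, which gave 38 of 43379 spots.

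The RNA came from whole hippocampi of male Wistar rats, 11 weeks old when housed, in 3 groups that were all placed on the treadmill for 6 weeks. CONT rats stayed at rest on it, ME rats ran at 15 m/min (mild exercise, below the lactate threshold) and IE rats ran at 40 m/min (intense exercise, above that threshold), with slight foot shocks during the habituation of both running groups and, for some IE rats, sparingly afterwards. By the methods, the 6 weeks included this habituation, which was longer for IE than for ME. IE rats that refused to run were left out of the study. Runs lasted 60 min/day, 5 times/week, and tissue was taken 24 or 36 h after the last run by the sample records, or 2 days after it by the methods. RNA of 5 rats was pooled for each group, and each pair of pools was hybridized on 2 arrays, with the dyes Cy5 and Cy3 exchanged on array 2.

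The sample records number the arrays of a dye swap as different pools, while the methods describe 1 pool per group, so each comparison was counted as 1 replicate. No test across rats could be made, and the SD given after each mean ratio is that between the 2 arrays of a dye swap, which measured the same RNA. Ratios are log2 of ME over CONT, IE over CONT or IE over ME, with the sign turned on array 2. Both comparisons with CONT used 1 CONT pool and lie on 1 slide, so that their ratios are not independent. The direct comparison of IE with ME lies on another slide. It was taken to use the same running pools, since the methods give 1 pool per group.

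The share of spots that both dyes read well above background was 66.5% to 74.4% per array, and 0 spots were saturated. The 13 probes of 8 hippocampal neuron markers (Prox1, Wfs1, Camk2a and others) were well above background in every reading of the CONT arrays, with median log2 ratios of 0.010 for ME and 0.0029 for IE.

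The sequences below are the first 30 of the 60 bases of the probes on which the results turn. The 2 Homer1 probes are shown because they read different forms of that message. A_44_P148865 is listed with NM_031707, AF093267 and AF093268, which are long forms, and A_44_P380835 with U92079 and AB003726, the short form that neuronal activity induces. The file gives no genome position for either. The Arc probe (NM_019361) lies on chromosome 7 of rn3, at chr7:112806255-112806314 on the minus strand. The Egr2 probe (NM_053633) lies at chr20:21897740-21897799, minus strand, and the Npas4 probe (NM_153626) at chr1:207752362-207752421, minus strand. The other probes lie, in the same build, at chr6:109564555-109564614 (Fos), chr1:78746783-78746842 (Fosb), chr19:24837607-24837666 (Junb), chr18:27373819-27373878 (Egr1), chr15:50494763-50494822 (Egr3) and chr7:140096879-140096938 (Nr4a1), and whether a probe falls in a coding or an untranslated part was not analysed here. No letters are in capitals, since no part of a probe is singled out.
Arc: ctggagatctcaagagtgtggctatcccct
Homer1, long forms: gcctgtgatattgaagagggttcttttcat
Homer1, short form: aacagaagctcattgacaaactaaagtgac
Egr2: gctcttaatagttgtggaaagattaaacaa
Npas4: ttcttccactatacagagaaagagcagaat

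Probes were called higher at a Cy5/Cy3 of 1.5 or more on array 1, where the running pool (IE in the direct comparison) carried Cy5, together with 0.75 or less on array 2. They were called lower in the reverse case, and p had to be below 0.01 on both arrays. This p comes from the scanner software and compares 2 pools on 1 array. With ME, 0 of the 11 probes were called, and 0 when the p threshold was left out, against 0.122% and 0.987% of all probes. With IE, the counts were again 0 and 0, against 0.0293% and 0.667%, and between IE and ME they were 0 and 0, against 0.0732% and 1.06%. At such background shares, 0 of 11 probes does not set these genes apart from the rest of the array.

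Markers of tissue that adjoins the hippocampus differed between the pools, in lists of genes chosen for that tissue. The lists were chosen with earlier results of these data known, so their counts are a description and not independent evidence. Of 13 probes for meninges markers, such as the collagens Col1a1, Col1a2 and Col3a1, 8 were called higher in ME and 0 in IE, and their summed signal was 8446 to 8646 in ME against 4830 to 4846 in CONT. These were the probes of Ogn, Col1a1 (1 of its 3 probes), Crabp2, Col1a2, Aldh1a2 and Col3a1, with mean log2 ratios of 0.74 to 1.31 in ME, and those of all but Aldh1a2 were called lower in IE than in ME (-1.35 to -0.67). Of 10 probes for choroid plexus markers, such as the thyroid hormone carrier Ttr, 3 were called higher in ME (Kcnj13, Sostdc1 and Ttr, 0.69 to 1.73) and 4 in IE (those and a probe of Otx2, 0.89 to 2.76). Their summed signal was 1232 to 1234 in ME against 701 to 815 in CONT, and 3980 to 4331 in IE against 923 to 1074 in CONT. Without the p threshold, Kl was added in ME, although it was not well above background there. Sostdc1 and Ttr were also called higher in IE than in ME, and Otx2 without the p threshold. Cldn2 of that list was not above background on any array.

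Below the limits for a call, the median of the members with ME was above that of the array. The median log2 ratio over the 11 probes was 0.13 with ME, 0.030 with IE and -0.054 for IE over ME. With either array left out these medians were 0.066 to 0.11, 0.0025 to 0.014 and -0.18 to -0.039, and normexp background correction gave 0.064 with ME. The ME median over the 11 probes was the ratio of Egr2, which was 0.80 on array 1 and -0.55 on array 2. In all readings, 10 of the 11 probes were well above background (all but Npas4), with medians of 0.17, 0.040 and -0.048. All such probes of the array had medians of -0.0025, 0.0018 and 0.0028. The ME median over these 10 lay between the ratios of Egr2 and Junb, and the arrays of each differed in sign. Both arrays gave ME above CONT for 5 genes, Fos, Egr1, Egr3, Arc and Nr4a1, where 13.6% of all probes well above background did so. The short Homer1 probe was below CONT on both arrays, as were 15.0% of those probes. Both arrays gave IE above CONT for 3 genes, Fosb, Egr1 and Arc (14.6%), and below it for 0 (13.6%). Between IE and ME, both arrays were below 0 for 4 genes, Fos, Egr2, Arc and Nr4a1 (12.1%), and above 0 for Fosb and both Homer1 probes (14.5%). These counts use the sign alone, and many of the ratios behind them were smaller than the software's error, which had a median of 0.21 per probe and array.

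**Figure D1:**
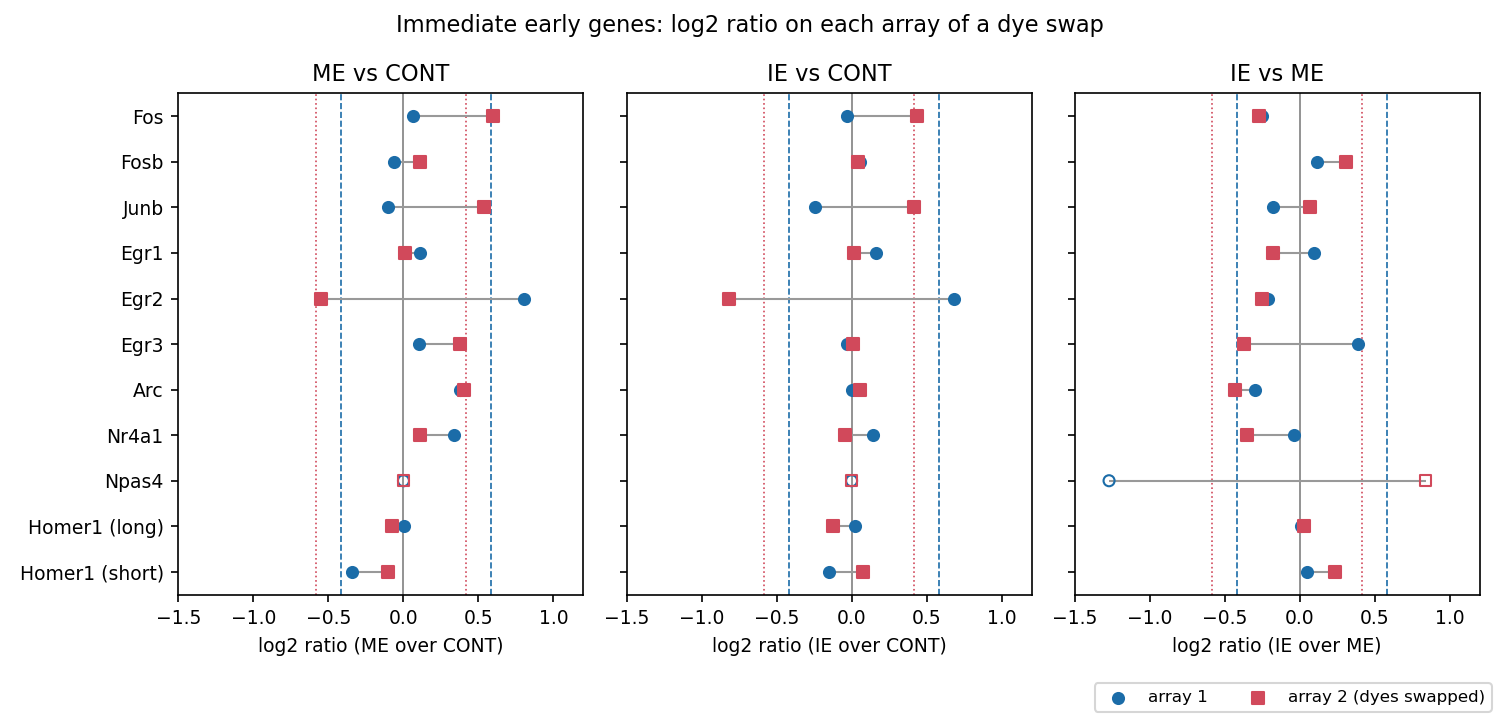
Log2 ratio of each member probe on array 1 (circles) and array 2 (squares) of the 3 comparisons, with open symbols for Npas4, which was not above background. Dashed lines are the fold limits for array 1 and dotted lines those for array 2, and no probe passes the limits in the same direction on both arrays. In ME vs CONT the Arc symbols lie together at 0.38 and 0.41, and the Egr2 symbols lie far apart on either side of 0.

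Arc gave the ratios of ME over CONT with the highest mean and the smallest gap between arrays among the members above background. It encodes a protein of dendrites that promotes the removal of AMPA receptors from synapses. On the slide with the CONT arrays, its signal was 1978 to 2155 over 4 CONT readings, 2795 and 2802 in ME, and 2056 and 2112 in IE. The ME readings thus lay above every CONT reading, and the IE readings lay among them. On the IE vs ME slide, the signal was 3273 and 3347 in ME and 2481 and 2659 in IE, again without overlap. For Arc and the genes below, these are repeated readings of 1 pool per group. The share of all probes whose readings lie apart in this way was not counted.

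The log2 ratio of Arc was 0.38 on array 1 and 0.41 on array 2 of ME vs CONT (mean 0.39 ± 0.020, a 1.31-fold higher level). It was 0.0025 and 0.057 in IE vs CONT (0.030 ± 0.038). Between IE and ME it was -0.30 and -0.43 (-0.37 ± 0.093, or 0.776-fold). The difference of the ratios against CONT, -0.36, was close to the ratio that the separate IE vs ME arrays gave. Such values were also close for Nr4a1 (-0.18 and -0.20) and Egr2 (-0.19 and -0.23). They were apart for Egr3 (-0.25 and 0.0073), Fosb (0.030 and 0.21) and Fos (-0.13 and -0.26). The arrays were taken to read the same pools, so a close match is a repeated reading and not a further replicate. The p values of the software were 0.070 and 0.050 in ME vs CONT and 0.146 and 0.0353 in IE vs ME, above the threshold in each case. In bulk tissue, less Arc message per cell and fewer cells that hold it cannot be told apart.

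The 10 Arc spots lay close together on each array. With ME they ranged from 0.33 to 0.43 on array 1 and from 0.36 to 0.44 on array 2, and with IE from -0.048 to 0.066 and from 0.0064 to 0.12. On the IE vs ME arrays they ranged from -0.34 to -0.26 on array 1 and from -0.45 to -0.38 on array 2. All 10 spots on each array were thus above 0 with ME and below 0 in IE vs ME. Of 28896 probes well above background in ME vs CONT, 94 (0.325%) were at or above the lower Arc ratio on both arrays. Of 25803 such probes in IE vs ME, 63 (0.244%) were at or below the higher Arc ratio on both arrays. Arc was singled out among the members by its ratios in these data, so the ranks are a description. Its ratio is also a mean of 10 spots, while 40749 probes of the array were printed once. The ME pool was also the one with the higher meninges signal given above, and the part of such tissue in the Arc ratio was not tested.

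**Figure D2:**
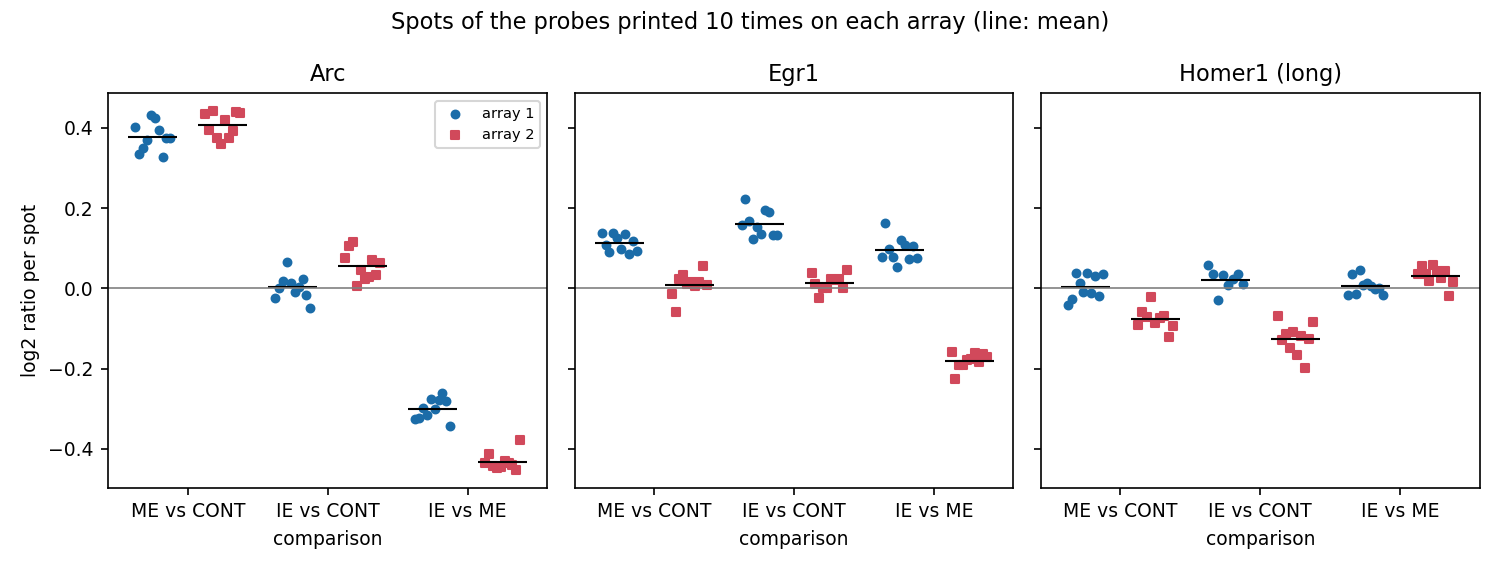
Log2 ratio of each kept spot of the Arc, Egr1 and long-form Homer1 probes, with array 1 as circles, array 2 as squares and the mean as a line. The Arc spots of both arrays lie above 0 in ME vs CONT (0.33 to 0.44) and below 0 in IE vs ME (-0.45 to -0.26), while the Egr1 spots of IE vs ME fall on different sides of 0 on the 2 arrays.

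Homer1 encodes a scaffold of the postsynaptic density that links receptors of the membrane to calcium stores. The short form, which lacks the part that joins long Homer proteins to each other, is the activity-induced product. The signal of the short-form probe was 556 to 655 in CONT, 517 and 524 in ME, and 551 and 586 in IE. The ME readings were below every CONT reading, while those of IE overlapped the CONT range at its lower end. On the IE vs ME slide the signal was 229 and 262 in ME and 270 and 271 in IE. Its log2 ratio was -0.34 and -0.10 with ME (-0.22 ± 0.17), -0.15 and 0.075 with IE (-0.037 ± 0.16), and 0.049 and 0.24 for IE over ME (0.14 ± 0.13). The p values of the software with ME were 0.0976 and 0.623. The arrays differed by more than the mean ratio with ME, so the short form was not separated from 0 by the spread between arrays.

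The long-form Homer1 probe stayed near 0. Its signal was 1093 to 1141 in CONT, 1083 and 1142 in ME, and 1027 and 1110 in IE. The log2 ratio was -0.036 ± 0.057 with ME, -0.052 ± 0.10 with IE and 0.019 ± 0.018 between IE and ME. Its spots spread by an SD of 0.021 to 0.037 within an array.

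Among the transcription factors, Nr4a1, an orphan nuclear receptor, had a bright probe with ratios above 0 in ME. Its signal was 3307 to 3581 in CONT, 3865 and 4185 in ME, and 3440 and 3720 in IE. The ME readings lay above those of CONT and the IE readings overlapped them. The log2 ratio was 0.34 and 0.11 with ME (0.22 ± 0.16), 0.14 and -0.043 with IE (0.050 ± 0.13), and -0.039 and -0.35 for IE over ME (-0.20 ± 0.22). On each comparison the arrays differed by about as much as the mean ratio or more, so this gene was not separated from 0 by the spread between arrays.

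Egr1, a zinc finger factor also known as Zif268, was read by 10 spots on each array. Its signal was 4153 to 4389 in CONT, 4347 and 4747 in ME, and 4226 and 4641 in IE, so that the groups overlapped. The log2 ratio was 0.11 and 0.0092 with ME (0.061 ± 0.073) and 0.16 and 0.014 with IE (0.087 ± 0.10). On the IE vs ME slide it was 0.095 on array 1 and -0.18 on array 2. The 10 spots of array 1 ranged from 0.054 to 0.16 there and those of array 2 from -0.23 to -0.16. The spots of an array lay close together (SD 0.031 and 0.020), while the arrays differed in sign, so repeated spots did not show the error between the arrays of a dye swap (SD 0.19).

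Fos, the partner of Jun proteins in the AP-1 complex, and Junb, a Jun protein, gave ratios that depended on the array. The Fos signal was 70.3 to 93.0 in CONT, 97.4 and 115 in ME, and 80.6 and 95.2 in IE. Its log2 ratio with ME was 0.066 on array 1 (p 0.758) and 0.60 on array 2 (p 0.00744), with a mean of 0.33 ± 0.38. With IE it was -0.029 and 0.44 (0.20 ± 0.33). Taken alone, array 2 would call Fos higher in ME, and array 1 would not. The direct comparison of IE with ME gave -0.25 and -0.27 for Fos (-0.26 ± 0.014), at signals of 42.7 to 55.0. This ratio turned to 0.040 with normexp background correction and to 0.016 without background subtraction.

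Junb had log2 ratios of -0.11 and 0.53 with ME (0.21 ± 0.45), -0.25 and 0.41 with IE (0.084 ± 0.47), and -0.18 and 0.070 for IE over ME (-0.054 ± 0.17). Its signal overlapped between CONT (206 to 304) and ME (283 and 326). For Junb the Cy3 signal was the brighter on every array, whichever pool carried it. Fosb, another partner of Jun proteins, had -0.066 and 0.11 with ME (0.020 ± 0.12) and 0.056 and 0.045 with IE (0.051 ± 0.0079). Its ratio of IE over ME was 0.12 and 0.31 (0.21 ± 0.14), with p values of 0.569 and 0.133.

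Egr2, a zinc finger factor also known as Krox20, had the largest ratios of single arrays among the genes above background, and these followed the dye. Its log2 ratio was 0.80 and -0.55 with ME (0.13 ± 0.95) and 0.68 and -0.82 with IE (-0.068 ± 1.1). In terms of the dyes, Cy5 was brighter on all 4 arrays with CONT, by 0.55 to 0.82 on the log2 scale. The mean log2 ratio of Cy5 over Cy3 was 0.68 in the ME swap and 0.75 in the IE swap, values that 0.599% and 0.397% of all probes well above background reached. For IE vs CONT, Egr2 passed the fold and p limits in Cy5 on each array, and 372 of 40957 probes (0.908%) passed them in 1 dye in this way. No member did so in ME vs CONT (0.87% of probes) or IE vs ME (4.18%). On the IE vs ME slide the dye difference was absent, with a mean Cy5 over Cy3 of 0.021, and the log2 ratio of IE over ME was -0.21 and -0.25 (-0.23 ± 0.030, p 0.402 and 0.345). The signal there was 55.4 and 56.8 in ME and 46.5 and 49.1 in IE, a gap within the software's error of 0.25 and 0.27.

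**Figure D3:**
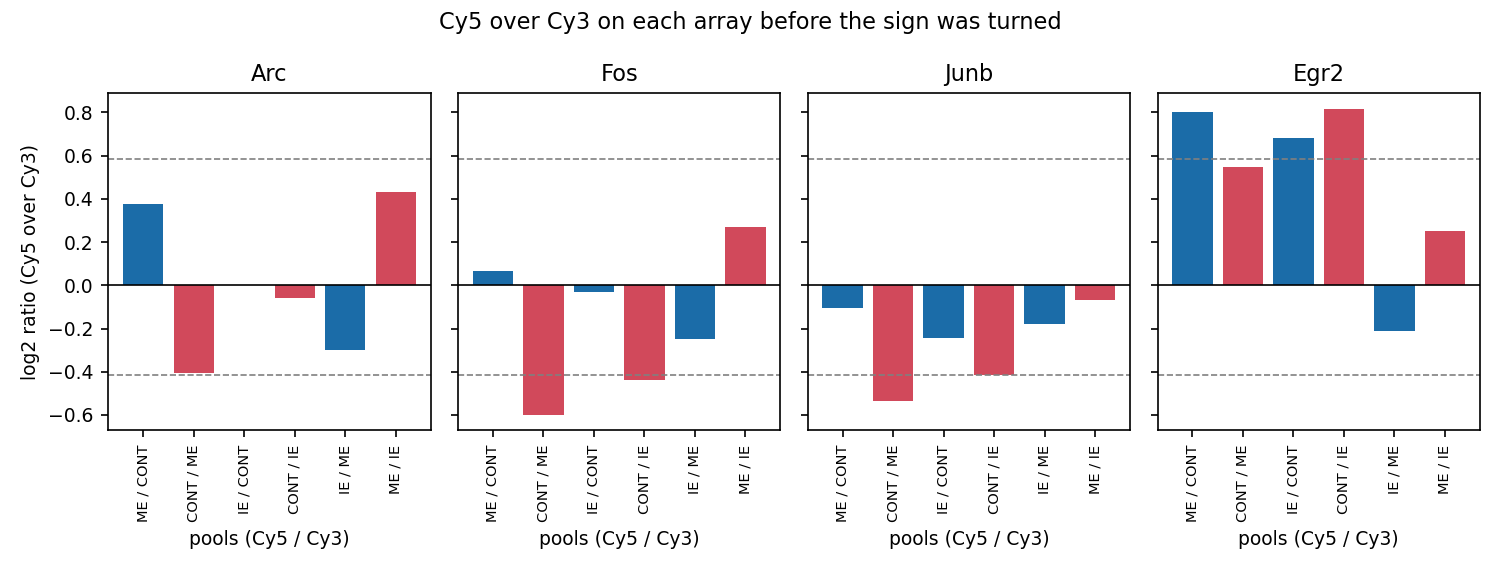
Bars give log2 of Cy5 over Cy3 on each of the 6 arrays, before the sign was turned, for Arc, Fos, Junb and Egr2, with the pools named as Cy5 / Cy3 and the fold limits as dashed lines. Arc changes sign when the dyes are swapped in ME vs CONT and IE vs ME, while Egr2 is above 0 on all 4 arrays with CONT (0.55 to 0.82) and Junb is below 0 on all 6 arrays.

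Egr3, another zinc finger factor of the family, was read at low signal, 44.4 to 83.8 in CONT, 48.3 and 57.6 in ME, and 62.8 and 84.3 in IE. These readings overlapped. The log2 ratio was 0.10 and 0.37 with ME (0.24 ± 0.19), -0.033 and 0.0094 with IE (-0.012 ± 0.030), and 0.39 and -0.37 for IE over ME (0.0073 ± 0.54). The arrays of IE vs ME thus gave opposite signs of nearly equal size. Npas4, a neuronal factor of the bHLH-PAS family that is induced by calcium entry, was not well above background in any reading. The software set its ratio to 0 on the 4 arrays with CONT, and in IE vs ME it gave -1.27 and 0.84 (p 0.318 and 0.490). No level of Npas4 can be given for any group.

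A gene with the serum response factor's site near its start can be recognised by a CArG box. RefSeq promoters of the GRCr8 assembly, from 250 bases before to 50 bases after the start, were searched for Fosb, Npas4, Homer1, Nr4a1, Egr1, Junb and Egr2. Those of Fos, Arc and Egr3 were not searched. CArG boxes were found on the promoters of Egr1 (2 boxes) and Egr2 (1 box), and 548 of 33469 promoters (1.64%) held any. The boxes are printed with 10 bases on each side, in capitals, in the direction of the gene, because they are the element through which these genes are known to respond to activity. They start 105 and 83 bases before the Egr1 start, at chr18:26736963-26736992 and chr18:26736985-26737014 on the plus strand with their flanks, and 83 bases before the Egr2 start, at chr20:21054505-21054534 on the minus strand.
Egr1, first box: gtcggtccttCCATATTAGGgcttcctgct
Egr1, next box: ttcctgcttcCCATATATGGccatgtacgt
Egr2: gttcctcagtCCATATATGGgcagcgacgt

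The full CREB site TGACGTCA was on 0 of the 7 promoters and on 612 of all (1.83%). Its shorter part TGACG, on either strand and counted also within the full site, was on those of Nr4a1, Egr1, Junb and Egr2, and on 21.2% of all. A match of letters is a description and does not show that a factor was bound.

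Other genes of the same response were read from 4 lists. Of 17 other activity-induced transcription factors, 15 were on the array, with 20 probes. Of 31 other activity-induced effectors, which are growth factors, phosphatases and the like, 30 were on the array, with 43 probes. The list of upstream kinases and transcription regulators had 18 of 22 genes with 30 probes, and that of the synaptic partners of Arc and Homer1 had 14 of 15 genes with 19 probes. In each list, 0 probes were called in each comparison, with or without the p threshold.

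For the effectors, the median log2 ratio over probes well above background was 0.090 with ME (37 probes), 0.027 with IE and -0.036 between IE and ME (31 probes). Both arrays were above CONT for 22 of the 37 probes with ME and below for 2, where 13.6% and 15.0% of all probes well above background did so. With IE these counts were 10 and 2 (14.6% and 13.6%). Between IE and ME, both arrays were above 0 for 2 of the 31 probes and below 0 for 10 (14.5% and 12.1%). The 37 probes read 28 genes, so that some genes were counted more than once. These counts use the sign alone, and many of the ratios were smaller than the software's error. The highest with ME was Cyr61, a matrix-associated growth regulator, with 0.29 and 0.78 (0.54 ± 0.35; another probe 0.31 and 0.29), and the lowest was Pim1, a kinase, with -0.43 and 0.25. Ctgf, a matrix protein related to Cyr61 and named here after its values were seen, had 0.49 and 0.50 with ME (p 0.0189 and 0.0152), 0.32 and 0.33 with IE, and -0.16 and -0.24 for IE over ME. Cyr61 and Ctgf are also made by cells of vessels and connective tissue, and the meninges markers moved the same way in the ME pool. With IE, where 0 meninges probes were called, Cyr61 had -0.35 and 0.28, and 0.28 and 0.27 at the other probe. The part of such tissue in these ratios was not tested.

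With IE, the highest effector was Inhba, a subunit of activin, with 0.048 and 1.37 (0.71 ± 0.94), and the lowest was a probe of Tiparp, with -0.070 and -0.38, while another had 0.23 and -0.24. Between IE and ME the highest was Pim1, with -0.83 and 1.16, and the lowest was Sik1, a CREB-regulating kinase, with -0.38 and -0.14. Of these, Inhba and Pim1 had arrays that differed by more than 1 on the log2 scale.

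The other transcription factors had a median of 0.048 with ME, 0.012 with IE and 0.0023 between IE and ME. With ME, both arrays were above CONT for 7 of 19 probes well above background and below for 2. Jund was the highest with ME (0.13 and 0.86, with 0.049 and 0.32 at another probe). The lowest was a probe of Nr4a3, a relative of Nr4a1 (-0.22 and -0.095), whose other probes had -0.15 and -0.058, and -0.23 and 0.057. With IE these were Fosl1 (0.66 and -0.44) and a probe of Klf6 (-0.44 and 0.14, with 0.12 and -0.093 at another), and in IE vs ME the same probe of Klf6 (0.029 and 0.18) and Klf4 (-0.24 and -0.63).

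The upstream regulators had medians of 0.00042, 0.0057 and 0.033 in the 3 comparisons, and the synaptic partners -0.020, -0.049 and 0.045. With ME, both arrays were above CONT for 3 of 26 regulator probes well above background and below for 0. For the partners these counts were 2 and 3 of 19. Among the regulators, a probe of Crebbp, a coactivator of CREB, was highest with ME (0.58 and -0.075), while its others had -0.019 and 0.079, and -0.088 and 0.049. Elk4, a partner of the serum response factor, was lowest with ME (-0.25 and 0.030) and highest with IE (0.46 and 0.053). A probe of Ppp3ca, the catalytic subunit of calcineurin, was lowest with IE (-0.24 and -0.26), and another had 0.13 and -0.037. For IE over ME, Crtc2 was highest (0.36 and 0.034) and a probe of Creb1 lowest (-0.26 and 0.057), while the other Creb1 probe had -0.064 and 0.43. The probes of Crebbp, Ppp3ca and Creb1 thus disagreed in sign.

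Among the partners, Ryr2, a calcium channel of internal stores, was lowest with ME (-0.13 and -0.13, with -0.26 and 0.084 at another probe), and the AMPA receptor subunit Gria1, whose surface level Arc affects, was lowest with IE (-0.42 and -0.012). For IE over ME, the scaffold Shank2 was highest (0.74 and -0.38, with 0.21 and -0.084 at another probe) and Homer2 lowest (-0.077 and -0.00041).

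**Figure D4:**
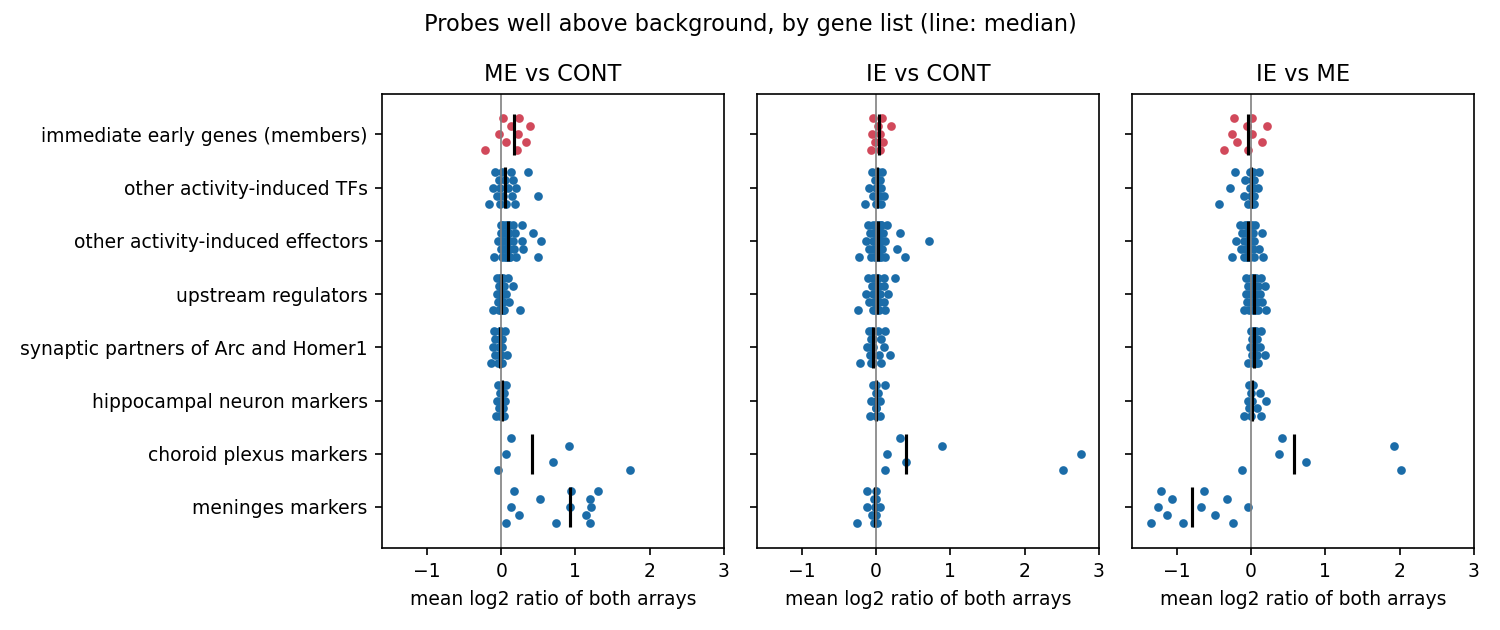
Mean log2 ratio of both arrays for each probe well above background, by gene list and comparison, with the median as a line. Members and effectors have medians of 0.17 and 0.090 in ME vs CONT, against 0.92 for the meninges markers and 0.010 for the hippocampal neuron markers.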

How the data were processed

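Hippocampal RNA of 3 pools was measured on 6 Agilent 2-color rat arrays. The authors scanned them with Agilent Feature Extraction, version 9.5.3.1 by the sample records; the file headers give it for the slide with CONT and 11.0.1.1 for the IE vs ME slide. The deposited log10 ratio of Cy5 over Cy3 is background-subtracted and LOWESS-normalized by that software, and the deposited p-value comes from its error model. The intensity values deposited are dye-normalized signals. A value table of the authors gives log10 ratios of those signals.

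Control features (1639 of 45018) and spots marked as outliers were left out, spots of a probe were averaged, with the median p, and ratios were turned to log2 of the deposited values. Calls use the limits of 1.5, 0.75 and p 0.01 that the methods give for groups against CONT, here put on Cy5/Cy3 of each array, so that 0.75 on the array with CONT in Cy5 is a smaller rise than 1.5-fold. Names on the IE vs ME slide were taken through the probe identifiers. Python 3.11.15, numpy 2.4.6, pandas 2.3.3, matplotlib 3.10.9, R 4.3.3 and limma 3.58.1 (normexp, offset 50) were used. The call rule was tested on simulated data, with independent noise on each array drawn from the software's error. The simulation held no difference that follows the dye, so it does not cover that error.

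The members and gene lists were chosen with earlier results of these data known. All members were named and, from each other list, genes called and those with the highest and lowest mean ratio among probes well above background, apart from the highest synaptic partners with ME and with IE, which are not reported here. From the marker lists, genes called are named and the highest and lowest others are not. Markers of hippocampal neurons, choroid plexus, meninges, cerebellum, thalamus and cortex were counted. Of 7 cerebellum probes 1 was called with ME (Gabra6, also lower in IE than ME without the p threshold), and of 9 thalamus and 3 cortex probes 0 were called in each comparison. Alternatives were no p threshold, 1.5-fold in each direction, each array alone, the value table, outliers kept, normexp or no background subtraction with loess, only probes well above background, the median over spots and gene means.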

Additional observations from a re-analysis of the deposited data

How the results depend on the processing

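The number of members called stayed at 0 under each alternative that used both arrays of a dye swap, also with 1.5 and 0.75 put on the turned ratio and no p threshold, which was chosen after seeing the data. From single arrays, 1 probe was called in ME vs CONT (Fos on array 2 alone, Egr2 on array 1 alone). In IE vs CONT, 1 was called (Egr2, higher on array 1 at 0.68 and lower on array 2 at -0.82). These are ranges of 1 to 1 against 0, with 0 to 0 in IE vs ME. The share of all probes that pass on a single array was not counted. The median log2 ratio over the 11 probes with ME (0.13) ranged from 0.066 to 0.11 with either array left out. It was 0.16 from the authors' value table, 0.064 with normexp and loess, 0.081 without background subtraction, and 0.17 over probes well above background or over gene means. With IE (0.030) it ranged from 0.0025 to 0.014 with either array left out, and was 0.050 from the value table and 0.040 over probes well above background or over gene means. In IE vs ME (-0.054) it ranged from -0.18 to -0.039 with either array left out, and was -0.13 over gene means, -0.017 with normexp and loess and -0.023 without background subtraction. In the value table only the Npas4 ratios against CONT differed, at 0.16 with ME and 0.20 with IE instead of 0. Npas4 was also the probe missing among those well above background, and gene means merged the 2 Homer1 probes. The cause of the other shifts was not tested.

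With the value table or another background correction, 13 of 99 ratios of single member probes moved by more than the SD between arrays. They included the Npas4 ratios against CONT, whose SD was 0 because the software set these ratios to 0. Arc with ME was among them without background subtraction (0.369, with an SD of 0.020). A ratio with a large SD needs a larger shift to be counted. The Arc ratio stayed between 0.37 and 0.41 with ME and between -0.43 and -0.30 in IE vs ME, while that of Fos in IE vs ME changed sign and that of Egr2 there moved from -0.23 to -0.14 without background subtraction. No paired analysis was possible because a group is only 1 pool. With 2 arrays of 1 RNA pair per comparison, a change below the 1.5 and 0.75 limits cannot be called. Npas4 was not above background.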
